A study of Mus musculus with 6 samples.

Results

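Transcripts of 10 genes known from tendon and from the surface of joints were followed in mouse skin during wound healing. The genes are Scx, Mkx, Tnmd, Fmod, Chad, Comp, Thbs4, Cilp, Cilp2 and Prg4, taken by gene symbol from 26644 genes listed in the deposited tables. They were selected on their symbols, with their measured levels in all 6 libraries and all stages already known, so what follows about them is a description and carries no test. RNA sequencing libraries were made from skin treated with C-phycocyanin (C-PC), a pigment protein of the cyanobacterium Spirulina, or from untreated skin (control). Skin of each treatment was taken at 3 stages of healing that the labels call early, middle and late, which gives 6 groups of 1 library each, and the control skin received no treatment. The labels give no strain, age or skin site, and they do not say how the wounds were made.

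Tendon joins muscle to bone through tightly packed collagen fibrils, and the surface of a joint is kept smooth by a lubricating layer. Scleraxis (Scx) and Mohawk (Mkx) are transcription factors that set and keep the tendon cell state in mice, and tenomodulin (Tnmd) is a membrane protein of mature tendon cells. Fmod, Chad, Comp and Thbs4 encode secreted proteins that bind or bridge matrix fibrils, Cilp and Cilp2 encode related proteins of the cartilage matrix, and Prg4 encodes lubricin, which lets joint surfaces slide.

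All 10 genes were detected in all 6 libraries. Their counts ran between 10 reads (Chad in the late C-PC library) and 51801 reads (Thbs4 in the early control). Libraries held between 15863637 and 18028674 reads on genes. Levels are given in CPM, reads scaled to the same total in each library, after TMM scaling (trimmed mean of M-values) over all 6 libraries, and intervals are exact at 95% and cover counting error only. Summed over the 10 genes, the early, middle and late levels were 1259, 1013 and 106 CPM with C-PC, and 4600.1, 923 and 464 CPM in controls. By this sum the early control stood highest and the late C-PC library lowest. Thbs4 (2453 CPM) and Prg4 (1454 CPM) made up most of the early control sum. Fmod, Chad and Cilp2 were highest in the middle C-PC library and Tnmd in the middle control. With scaling by total reads, Chad stood at 26.5 CPM in both middle libraries. The middle sums of the 10 genes were then 762 CPM with C-PC and 1019.8 CPM in the control, so their order turned. With bulk tissue, fewer cells of a type and less RNA per cell cannot be told apart.

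The libraries differed widely in other tissue markers, and these values stand beside every level given below. A list of 20 skeletal muscle genes summed to 6501, 232369 and 2298 CPM at the early, middle and late stage with C-PC, and to 13499.5, 10751 and 225118 CPM in controls. A list of 12 keratinocyte genes summed to 7.95, 8.36 and 5143 CPM with C-PC, and to 1.89, 2706 and 5.64 CPM in controls. The early C-PC library held 0 reads of 2 of these 12 genes, the early control of 9, the middle C-PC library of 9 and the late control of 8, with the basal keratin gene Krt5 at 0 in the last 3. Hair follicle genes (12 genes) stood at 38997 CPM in the late C-PC library and at no more than 68.2 CPM elsewhere. Muscle transcripts were thus abundant with C-PC at the middle stage and in the control at the late stage, and epidermal transcripts with C-PC late and in the control at the middle stage. A list of 12 adipocyte genes summed to 545, 14233 and 2612 CPM with C-PC, and to 944, 709 and 21096 CPM in controls. In the C-PC library the muscle and adipocyte sums thus exceeded the control at the middle stage and were lower late, and the epidermal sums went the other way. Libraries are grouped by their labels alone, and no value in the tables checks those labels, so whether any were exchanged was not tested. An exchange within a pair would turn the sign of all its ratios. The part of these differences in the results was not tested.

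**Figure D1:**
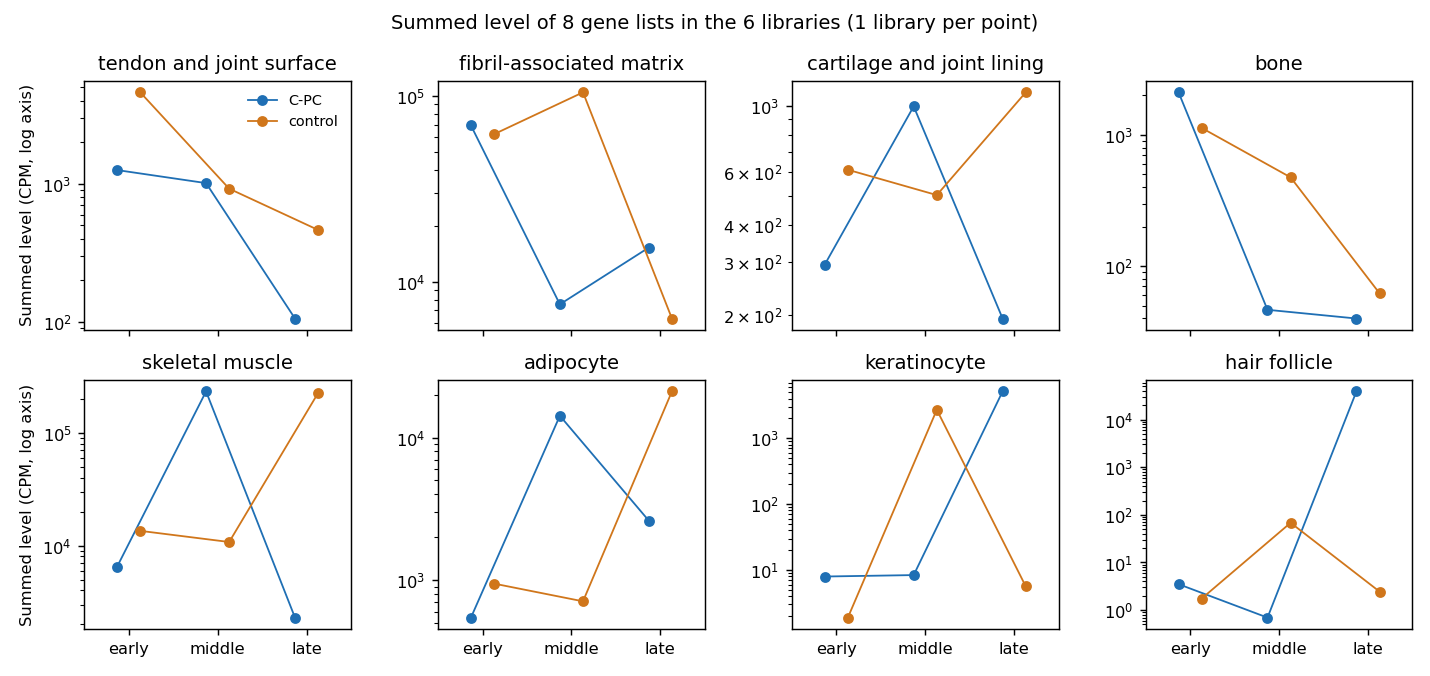
Summed level in CPM (log axis) of 8 gene lists at the early, middle and late stage, blue for C-PC and orange for control, 1 library per point. The tendon and joint surface sum is highest in the early control at 4600.1 CPM, while the skeletal muscle sum is highest with C-PC at the middle stage (232369 CPM) and in the control at the late stage (225118 CPM).

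The matrix genes made up most of the signal, and their order changed between libraries. Per kilobase of transcript, which allows genes to be compared, Thbs4 led in both early libraries at 222 CPM per kb with C-PC and 746 CPM per kb in the control. Prg4 came second at 72.0 CPM per kb with C-PC and 339.7 CPM per kb in the control. Fmod led in the middle C-PC library at 142 CPM per kb and in the late control at 52.2, whereas Thbs4 led in the middle control at 147. Cilp led in the late C-PC library at 12.3 CPM per kb, where it made up 37.2% of the summed level per kb of the 10 genes. The lowest per kb was Chad in the early C-PC library, Cilp2 in the early control and the late C-PC library, Mkx with C-PC at the middle stage and in the late control, and Scx in the middle control.

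**Figure D2:**
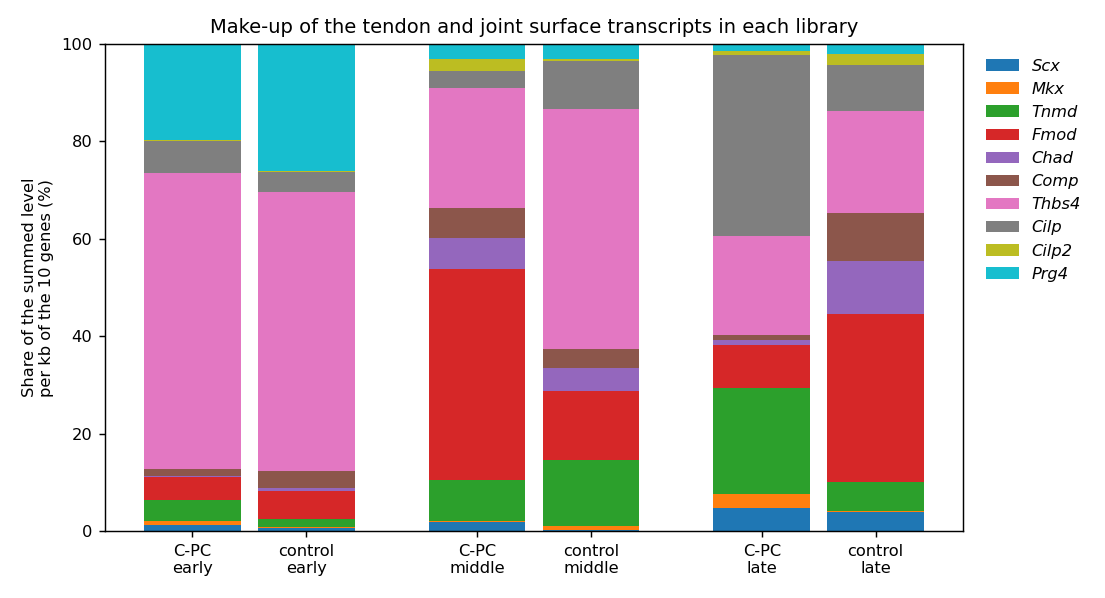
Share (%) of the summed level per kb that each of the 10 genes took in each library, with C-PC left of control at each stage. Thbs4 takes 60.8% in the early C-PC library and 57.3% in the early control, Fmod takes 43.3% in the middle C-PC library and 34.4% in the late control.

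Among the transcription factors, Scx (ENSMUSG00000034161, chromosome 15, 76457452 to 76459458, build GRCm38) stood at 10.3, 12.1 and 3.23 CPM at the early, middle and late stage with C-PC, and at 16.2, 1.60 and 12.1 CPM in controls. The middle control was the lowest library, with 28 reads. The late control, the middle C-PC and the early C-PC library could not be told apart by counting error between neighbours. Scx lies within the span of Bop1, a ribosome assembly gene on the opposite strand, and the libraries do not mark strand. The length that the tables give for Scx, 2007 bases, is its whole span, so reads from an intron of Bop1 would count for Scx. Bop1 stood at 45.7, 40.6 and 95.1 CPM with C-PC and at 48.3, 36.0 and 44.8 CPM in controls.

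Mkx (ENSMUSG00000061013, chromosome 18, 6910459 to 7004780) stood at 9.80, 5.26 and 3.58 CPM with C-PC, and at 15.2, 10.7 and 1.72 CPM in controls. In both treatments the early library was the highest and the late library the lowest. The late control held only 21 reads. In the GENCODE M21 annotation Mkx shares 201 of its 4095 exon bases with AC148004.2, a gene on the same strand. No reads are listed for AC148004.2, so its part in the Mkx levels was not tested. Tnmd (ENSMUSG00000031250, chromosome X, 133850980 to 133865577) stood at 21.6, 37.3 and 9.85 CPM with C-PC, and at 29.0, 54.9 and 12.0 CPM in controls. Here the middle library was the highest of each treatment, and the late pair could not be told apart by counting error. Tnmd spanned 5.58-fold between its lowest and highest library and Cilp 4.74-fold, the narrowest ranges of the 10 genes, against 679.7-fold for Prg4.

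**Figure D3:**
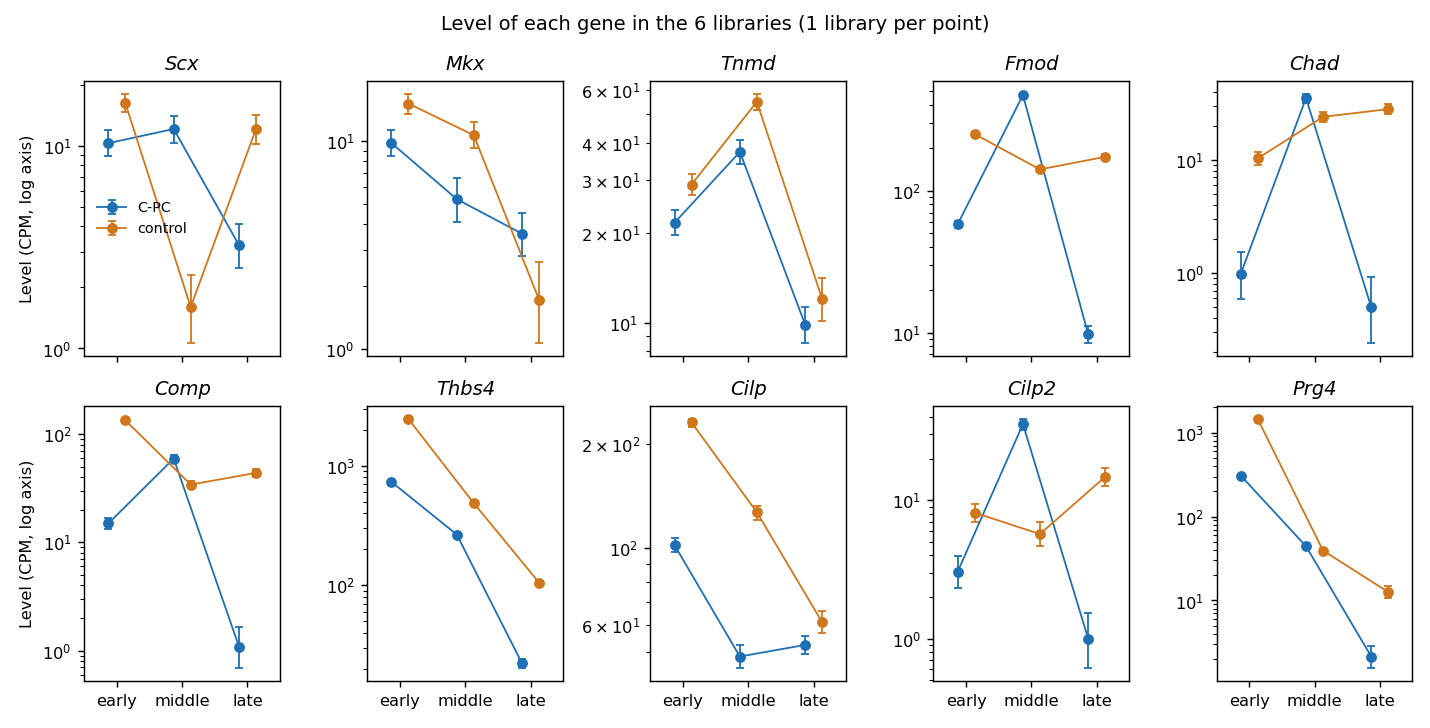
Level of each gene in CPM (log axis, its own range per panel) at the early, middle and late stage, blue for C-PC and orange for control, with exact 95% counting intervals. Thbs4, Cilp and Prg4 are highest in the early control, and Fmod, Chad and Cilp2 are highest in the middle C-PC library.

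Of the fibril-binding proteins, fibromodulin (Fmod, ENSMUSG00000041559, chromosome 1, 134037254 to 134048277), a small leucine-rich proteoglycan that shapes collagen fibrils, stood at 57.9, 471 and 9.70 CPM with C-PC and at 250.2, 141 and 173 CPM in controls. The C-PC libraries held both the highest and the lowest value. Chondroadherin (Chad, ENSMUSG00000039084, chromosome 11, 94565047 to 94569127), a leucine-rich protein that binds cells to cartilage matrix, stood at 0.98, 35.2 and 0.497 CPM with C-PC and at 10.3, 24.0 and 28.1 CPM in controls. Its early and late C-PC libraries held 19 and 10 reads and could not be told apart. Chad lies within the span of Acsf2 on the opposite strand, which stood between 13.4 and 27.7 CPM in all libraries.

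Comp and Thbs4 belong to the thrombospondins, multimeric proteins of the matrix. Comp (ENSMUSG00000031849, chromosome 8, 70373558 to 70382066) stood at 15.0, 59.4 and 1.09 CPM with C-PC and at 134, 34.2 and 43.8 CPM in controls. Thbs4 (ENSMUSG00000021702, chromosome 13, 92751590 to 92794818) stood at 730.3, 265 and 22.1 CPM with C-PC and at 2453, 485 and 105 CPM in controls. Thbs4 was lower at each later stage within both treatments, while Comp was highest at the middle stage with C-PC and at the early stage in controls.

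The family relatives Thbs1, Thbs2 and Thbs3 had other levels. Thbs2, which is made by fibroblasts, stood at 835, 83.8 and 148 CPM with C-PC and at 620.0, 1997 and 58.4 CPM in controls. Its highest library was the middle control, whereas that of Thbs4 was the early control.

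Cilp (ENSMUSG00000042254, chromosome 9, 65265180 to 65280605), known to restrain TGF-beta signalling, stood at 102, 48.6 and 52.5 CPM with C-PC and at 231, 127 and 61.1 CPM in controls. Its relative Cilp2 (ENSMUSG00000044006, chromosome 8, 69880369 to 69887687) stood at 3.04, 35.6 and 0.995 CPM with C-PC and at 8.14, 5.70 and 14.8 CPM in controls. The middle C-PC library was the highest for Cilp2, while for Cilp the middle and late C-PC libraries were the lowest and could not be told apart by counting error.

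Prg4 (ENSMUSG00000006014, chromosome 1, 150449412 to 150466165) stood at 308, 44.3 and 2.14 CPM with C-PC and at 1454, 39.4 and 12.6 CPM in controls. Both early libraries stood above all later ones. Prg4 shares 204 of its 4280 exon bases with Tpr, a nuclear pore gene on the other strand. If the reads of Tpr lay evenly over its length, 61.0 of them would fall on the shared bases in the late C-PC library and 25.9 in the late control, where Prg4 was given 43 and 154 reads. Late levels of Prg4 can therefore hold reads of Tpr, and how the authors counted such reads is not given in the sources used here.

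At the early stage C-PC was set against its control. All 10 genes had a lower level in the C-PC library. A gene was called apart when its levels differed at least 2-fold and the counting interval left out equality, and 7 of the 10 were called lower and 0 higher. Over all 16589 genes compared, 9.77% were called, 6.85% lower and 2.92% higher, and since the 10 were chosen with this contrast known, their count is not read against that share. Their median log2 ratio was -1.57, against 0.01 for all genes.

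Chad had the lowest early ratio, 0.98 CPM against 10.3 CPM (log2 ratio -3.26, interval -4.15 to -2.71), followed by Comp at -3.15 (-3.34 to -2.98). Prg4 gave -2.24 (-2.28 to -2.20), Fmod -2.11 (-2.21 to -2.02), Thbs4 -1.75 (-1.77 to -1.72), Cilp2 -1.39 (-1.87 to -0.99) and Cilp -1.17 (-1.25 to -1.10). The regulators and the tendon cell membrane protein lay nearer to equality, with Scx at -0.65 (-0.91 to -0.40), Mkx at -0.63 (-0.90 to -0.37) and Tnmd at -0.42 (-0.61 to -0.24).

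Other genes of tendon, cartilage and bone were taken from lists built on known roles. A list of 37 fibril-associated matrix genes held collagens, proteins that bind or cross-link them, and other genes such as Angptl7, Clec3b, Htra1 and Htra3. Of the 37, 4 were called lower and 1 higher early, with a median log2 ratio of -0.02. Col1a1, the main fibril collagen of tendon and skin, stood at 18935 CPM with C-PC against 15273 CPM in the control, a log2 ratio of 0.31 (0.30 to 0.32). The lower genes of that list include Angptl7, a secreted angiopoietin-like protein, at -2.45 (-2.67 to -2.26) and Kera, the proteoglycan keratocan, at -1.74 (-1.99 to -1.50). Epyc, the cartilage proteoglycan epiphycan, was the higher one, with 62 reads against 6.

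Cartilage and joint lining genes were lower in 11 of 20 compared early, with 0 higher and a median of -1.27. Col2a1, the collagen of hyaline cartilage, stood at 1.03 CPM with C-PC against 75.7 CPM in the control (-6.07, -6.91 to -5.57), and Acan, the large proteoglycan aggrecan, at 1.70 CPM against 32.4 CPM (-4.17, -4.80 to -3.75). Of 12 bone genes, 10 were called lower and 1, Spp1, which encodes osteopontin and is also made by macrophages, higher. Ibsp, which encodes bone sialoprotein, had 0 reads with C-PC against 3018 in the control, at least 923-fold lower when set against 3 reads. Of 8 genes of the junction between muscle and tendon, 3 were called lower and 1, Adamts20, higher (3.30 CPM against 1.52 CPM), with a median of -0.23. The lowest ratio of these was that of Col22a1, a collagen of this junction. Col22a1 stood at 1.34 CPM with C-PC against 13.1 CPM in the control (-3.20, -3.93 to -2.71). Muscle genes were also lower, with 13 of 19 called lower, 0 higher and a median of -1.15. Neutrophil genes were lower in 7 of 8, with a median of -1.76, and their ratios ranged widely. Elane, which encodes neutrophil elastase, had 1 read with C-PC against 1849 in the control (-9.18, -16.03 to -8.25). Camp had 7 reads against 4273, and Mpo 8 against 3423. The other genes of this list lay nearer to equality, such as S100a9 at 503 CPM against 1299 CPM and Csf3r at 126 CPM against 208 CPM. The part of the other lists in the early ratios was not tested.

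At the middle stage calls among the 10 genes went both ways. Scx, Cilp2 and Fmod were called higher in the C-PC library, Cilp and Mkx lower, and 5 were not called. Of 17076 genes compared, 51.9% were called, 23.9% higher and 28% lower. The calls of the 10 lie near these shares and are not read as a trait of the 10. The median of the 10 was 0.36, against -0.12 for all genes. Scx stood at 12.1 CPM with C-PC against 1.60 CPM (log2 ratio 2.84, interval 2.33 to 3.55), Cilp2 at 35.6 CPM against 5.70 CPM (2.62, 2.33 to 2.97) and Fmod at 471 CPM against 141 CPM (1.74, 1.67 to 1.81). In the same comparison, all 19 muscle genes and all 12 adipocyte genes compared were called higher (medians 4.40 and 4.68).

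Cilp gave -1.38 (-1.51 to -1.25) at the middle stage, and Mkx -1.01 (-1.45 to -0.62), close to the 2-fold limit. Comp (0.80), Chad (0.55), Tnmd (-0.56) and Thbs4 (-0.87) stayed within 2-fold. Prg4 gave 0.17 (0.01 to 0.33), and its direction turned to -0.38 when libraries were scaled by total reads. With that scaling the median over all genes was -0.66 in place of -0.12, and Tnmd and Thbs4 then passed the 2-fold limit as lower, so that 3 genes were higher and 4 lower.

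The fibril-associated list went mostly the other way from Fmod, with 30 of 37 called lower, 2 higher and a median of -3.20. The 2 higher genes were Kera at 1.09 (0.92 to 1.26) and Angptl7 at 1.05 (0.86 to 1.26), both of which were lower early. Col1a1 stood at 1042 CPM with C-PC against 23893 CPM (-4.52, -4.54 to -4.49), and Col12a1, a fibril-associated collagen, at 61.2 CPM against 2453 CPM. Of 8 myofibroblast genes, 4 were called lower and 0 higher, with a median of -3.1. Of 10 dermal fibroblast genes, 6 were called lower and 0 higher, with a median of -1.16. The part of fibroblasts in these ratios was not tested. Of 15 genes of tendon development compared, 7 were called higher and 4 lower. Among them Mstn, the muscle growth inhibitor myostatin, gave 3.91 (3.66 to 4.2), Eya1, a transcriptional coactivator, 3.85 (3.45 to 4.37) and Tcf15, a close relative of Scx, 3.5 (3.16 to 3.93). Egr1, a transcription factor that responds to load in tendon, was lower at -2.15 (-2.32 to -1.98). Cartilage and joint lining genes were mixed, with 10 of 20 lower, 5 higher and a median of -0.96, and of 11 bone genes 9 were lower and 1 higher. Of the 8 genes of the junction between muscle and tendon, 6 were called higher and 1 lower, with a median of 2.99. Col22a1 gave 3.58 (3.2 to 4.08). All 19 muscle genes compared were also called higher, and their part in the junction calls was not tested.

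At the late stage 7 of the 10 were called lower in the C-PC library and 1 higher, with a median of -2.37 against 0.06 for all genes. Of 17073 genes compared, 49.5% were called, 24.9% lower and 24.6% higher. Chad stood at 0.497 CPM with C-PC against 28.1 CPM (log2 ratio -5.56, interval -6.89 to -4.92) and Comp at 1.09 CPM against 43.8 CPM (-5.20, -6.01 to -4.71). Fmod stood at 9.70 CPM against 173 CPM (-4.14, -4.37 to -3.94) and Cilp2 at 0.995 CPM against 14.8 CPM (-3.77, -4.64 to -3.22). In the same comparison, all 19 muscle genes and all 12 adipocyte genes compared were called lower (medians -6.68 and -2.34).

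Prg4 gave -2.5 (-3.08 to -2.06) at the late stage, with the overlap with Tpr described above, Thbs4 gave -2.24 (-2.40 to -2.09) and Scx -1.87 (-2.35 to -1.47). Mkx was the only one of the 10 called higher, at 1.02 (0.34 to 1.84), on 72 reads against 21. That call and the middle call of Mkx are both lost with a pseudocount of 1 CPM. Tnmd (-0.28) and Cilp (-0.22) were within 2-fold, and both turned positive, to 0.35 and 0.42, when libraries were scaled by total reads, with which the median over all genes was 0.69 in place of 0.06.

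The fibril-associated list again parted from Fmod at the late stage, with 12 of 36 called higher, 2 lower and a median of 0.36. Col1a1 stood at 3481 CPM with C-PC against 600.3 CPM (2.54, 2.5 to 2.57), and the 2 lower genes were Kera and Angptl7 at -6.55 (-10.60 to -5.68) and -1.16 (-1.68 to -0.70). Of 8 myofibroblast genes, 3 were called higher and 2 lower (median 0.46). Of 10 dermal fibroblast genes, 4 were called higher and 1 lower (median -0.04). Cartilage and joint lining genes were lower in 17 of 21 compared, with 2 higher and a median of -3.17. Col2a1 stood at 0.846 CPM with C-PC against 147 CPM in the control. Sox6, a transcription factor of cartilage that fast muscle fibres also use, gave -4.83 (-5.09 to -4.62), and at the middle stage it had been higher at 3.79 (3.63 to 3.96). Cnmd, chondromodulin, the nearest relative of Tnmd, had 0 reads with C-PC against 44 in the control, at least 24.1-fold lower when set against 3 reads. Of 16 genes of tendon development compared, 8 were called lower and 5 higher, with a median of -0.83. Tgfb2 and Tgfb3, ligands that induce tendon progenitors, were lower at -2.56 (-2.85 to -2.31) and -1.87 (-2.06 to -1.69). On the higher side, Gli1, a target of hedgehog signalling, gave 3.33 (3.0 to 3.72), Egr2 3.26 (2.84 to 3.79), Sox9 3.22 (2.89 to 3.61) and Egr1 1.26 (1.14 to 1.38). Gli1 stood at 58.4 CPM and Sox9 at 54.8 CPM in the late C-PC library, the highest of the 6 libraries for both. In the same comparison all 12 hair follicle genes were called higher (median 13.75), and their part in these ratios was not tested. Of 9 bone genes compared late, 4 were lower and 2 higher. Of the 8 genes of the junction between muscle and tendon, 5 were lower and 1 higher, with a median of -1.9. Col22a1 gave -4.89 (-6.58 to -4.16). All 19 muscle genes compared were also called lower, and their part in the junction calls was not tested.

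**Figure D4:**
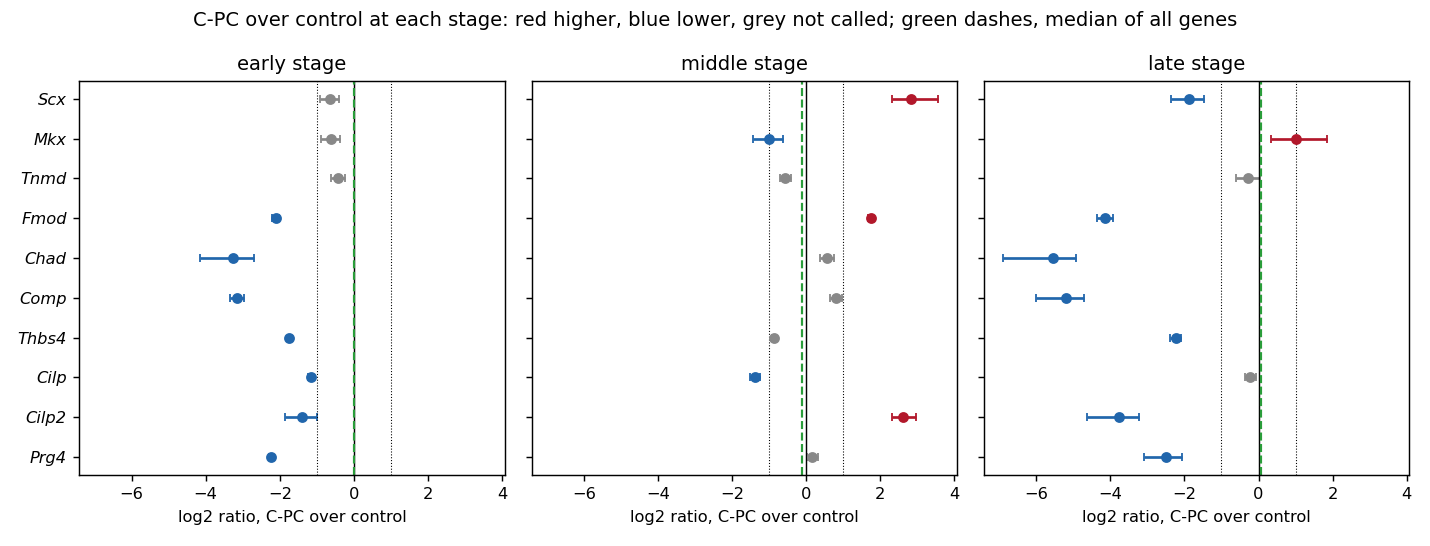
Log2 ratio of C-PC over control for each gene at the early, middle and late stage with exact 95% counting intervals. Dotted lines mark 2-fold, green dashes the median of all genes. All 10 genes lie below 0 early, 6 lie above 0 at the middle stage and 9 lie below 0 late.

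Within a treatment, later stages were set against the early stage, and these comparisons share the early library. With C-PC, 4 of the 10 were called higher and 3 lower at the middle stage (all genes 49.9% called, 25.1% higher and 24.8% lower), and 0 were higher and 8 lower at the late stage (all genes 37.3% called, 16.7% higher and 20.5% lower). Chad showed the largest middle ratio, 5.03 (4.51 to 5.91), and Prg4 the lowest late ratio, -7.10 (-7.64 to -6.74). In controls, 1 gene was called higher and 4 lower at the middle stage (all genes 14.1% called, 8.64% higher and 5.48% lower), and 1 higher and 6 lower at the late stage (all genes 47.7% called, 24.3% higher and 23.5% lower). Chad was the higher gene of the controls at both stages, at 1.21 (0.98 to 1.46) and 1.44 (1.2 to 1.7). Prg4 gave -5.20 (-5.32 to -5.10) at the middle stage and -6.84 (-7.09 to -6.62) at the late stage in controls.

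Patterns over the 6 libraries were compared by the root mean square difference of log2 levels after each gene was centred on its mean, with 6 points per gene. Within the 10 genes the closest pair was Fmod and Cilp2 at 0.61, followed by Mkx and Cilp at 0.62 and Comp and Fmod at 0.72. Prg4 was closest to Thbs4 at 1.06. Among 11619 other protein-coding genes, Fmod was closest to Tnnt1 (0.46) and Tnnc1 (0.52), the slow muscle troponins T and C, and Cilp2 to Rps6ka2 (0.41). Tnnt1 stood at 8.20, 88.4 and 2.29 CPM with C-PC and at 36.0, 33.6 and 60.7 CPM in controls. Chad was also closest to Tnnt1 (0.77) and Tnnc1 (0.82), and Comp to Kcnma1 (0.84), Tnnc1 (0.89) and Kera (0.91).

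Mkx was closest to Tlr5 (0.22) and Gpr34 (0.30), Cilp to Kcne4 (0.22) and Igfbp4 (0.24), and Tnmd to Per3, a gene of the circadian clock (0.31), and Parp8 (0.34). Scx was closest to Abcb1b and Fgfr4 (both 0.38). Thbs4 was closest to Slc2a3, a glucose transporter (0.77), and Prg4 to the interferon-induced gene Ifit3 (1.39), the largest nearest distance of the 10 genes.

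The start regions of 4 of the genes are shown because Fmod and Cilp2 had the closest patterns, Thbs4 the highest mean level per kb, and Tnmd is a known target of Scx in mice. Each runs from 250 bases before to 50 bases after the RefSeq start (GRCm38.p6), in the direction of transcription. Scx binds E-boxes, which read CANNTG on both strands, and these are in capitals.
Fmod, chr1:134037004-134037303, plus strand: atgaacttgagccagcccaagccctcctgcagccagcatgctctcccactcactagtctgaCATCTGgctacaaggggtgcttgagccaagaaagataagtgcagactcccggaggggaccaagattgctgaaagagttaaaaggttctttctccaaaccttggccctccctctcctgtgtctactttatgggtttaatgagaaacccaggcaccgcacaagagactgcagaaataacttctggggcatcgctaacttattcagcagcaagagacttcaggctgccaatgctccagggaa
Cilp2, chr8:69887343-69887642, minus strand: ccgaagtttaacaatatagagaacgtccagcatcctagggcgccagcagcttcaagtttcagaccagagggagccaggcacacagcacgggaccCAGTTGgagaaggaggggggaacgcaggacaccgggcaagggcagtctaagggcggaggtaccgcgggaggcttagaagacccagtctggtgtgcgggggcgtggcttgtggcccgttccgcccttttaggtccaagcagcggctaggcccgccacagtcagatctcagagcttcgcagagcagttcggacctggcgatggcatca
Thbs4, chr13:92794769-92795068, minus strand: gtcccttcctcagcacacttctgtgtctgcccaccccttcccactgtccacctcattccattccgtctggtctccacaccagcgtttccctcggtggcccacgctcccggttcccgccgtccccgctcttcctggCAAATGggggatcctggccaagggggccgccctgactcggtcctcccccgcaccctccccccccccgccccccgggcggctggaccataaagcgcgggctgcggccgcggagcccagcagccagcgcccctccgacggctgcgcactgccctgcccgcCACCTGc
Tnmd, chrX:133850758-133851057, plus strand: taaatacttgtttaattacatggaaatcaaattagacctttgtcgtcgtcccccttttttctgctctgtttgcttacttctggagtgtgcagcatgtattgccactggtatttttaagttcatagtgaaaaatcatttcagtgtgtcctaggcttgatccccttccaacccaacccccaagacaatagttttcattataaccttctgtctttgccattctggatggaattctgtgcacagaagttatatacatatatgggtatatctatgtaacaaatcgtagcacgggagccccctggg
An E-box was found once in the windows of Fmod and Cilp2 and 2 times in that of Thbs4, and these letters are not in the window of Tnmd. Of 32851 start regions of this length, 72.3% hold at least 1 E-box and 39.6% at least 2. A match is a description of the letters and not a site. The RefSeq table used here matched 6 of the 10 genes.

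Over the stages, C-PC and control libraries were compared in 1 fit across all genes, with limma on log2 values and the stage as a block. Of 15601 genes tested, 0 passed an adjusted p of 0.05 and 118 had an unadjusted p under 0.05 (38 without the early pair, 426 without the middle pair and 278 without the late pair). edgeR on recovered reads also gave 0 (98 unadjusted), and DESeq2 gave 45 (3 higher and 42 lower, 279 unadjusted). Of 196 genes of the lists other than the 10, limma and edgeR each passed 0 (16 and 12 unadjusted) and DESeq2 9 (30 unadjusted). The 20 cartilage and joint lining genes tested had 0 passing and 7 unadjusted in limma, the 8 neutrophil genes 0 and 6, and the 9 bone genes 0 and 3. Since each stage holds 1 library of each treatment, the error of this fit is how much the C-PC difference varied between stages.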

How the data were processed

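Per the labels' protocols, RNA of the skin was extracted with silica columns and sequenced from libraries that keep no strand. The submitters' processing notes name the human build hg38 alone, whereas the tables use mouse identifiers and coordinates. Of 26644 genes, 25885 have the coordinates of GENCODE M21 (GRCm38), as do 9 of the 10 genes, all but Mkx. Which aligner and counter were used is not stated in the labels or headers.

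The authors deposited 1 table per stage whose values are a signal, read counts scaled within the pair. Per the file headers the tables also hold the authors' log2 fold changes, p-values and adjusted p-values, which were not used. Each value is a whole multiple of 1 step plus a small offset, and at least 99.996% of values per library gave whole reads within 0.1 read. A gene is listed in a table from 2 reads in its pair upward. The recovered reads of all 6 libraries were scaled together by TMM (edgeR 4.0.16). Ratios use CPM plus 0.1, with exact conditional binomial intervals, for genes with at least 10 reads in 1 of 2 libraries. Levels per kb use the gene length in the tables. For a gene at 0 reads, folds were computed as if that library held 3 reads.

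limma 3.58.1 (trend, robust) was run on log2(deposited value + 2) with a block for stage and 2 residual degrees of freedom, after edgeR's expression filter. edgeR's quasi-likelihood test and DESeq2 1.42.0 on recovered reads were alternatives, all with Benjamini-Hochberg adjustment. The limma fit and the counting rule were run on simulated reads whose C-PC fold was the same at every stage. Ratios here changed side between stages for some genes, so that run does not measure what the fit would find in these data. The 10 genes, the lists and the tests were chosen with earlier results of these data known. Genes outside the 10 were named from the lists, mainly up to 4 per list and stage with the largest ratios among called genes at a mean of 5 CPM or more, or as the 3 nearest patterns. Kera, Angptl7, Col1a1, Col12a1, Cnmd, Epyc, Spp1, Thbs1, Thbs2, Thbs3, Adamts20, Egr1, Egr2, Sox9, Tgfb2, Tgfb3 and the overlapping genes were named, at stages where this rule did not pick them, after their values were seen.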

Additional observations from a re-analysis of the deposited data

Results flagged for a closer look

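For 4 of the 10 genes the C-PC ratio was called in opposite directions at different stages. How many of all genes did so was not counted, so this number is not read as a trait of the 10. Of all genes compared, 51.9% were called at the middle stage and 49.5% late. All 19 muscle genes and all 12 adipocyte genes compared were called higher at the middle stage and lower late. Each stage has 1 library per treatment, so the difference between stages was not tested. Fmod gave log2 ratios of -2.11 early, 1.74 at the middle stage and -4.14 late. Cilp2 gave -1.39, 2.62 and -3.77 at the same stages. Scx gave 2.84 at the middle and -1.87 at the late stage, and Mkx gave -1.01 and 1.02, both close to the 2-fold limit. The summed level of the skeletal muscle list also changed side, at 6501 CPM with C-PC against 13499.5 CPM in the control early, 232369 against 10751 CPM at the middle stage and 2298 against 225118 CPM late. Its part in these ratios was not tested.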

How the results depend on the processing

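Scaling by total reads turned the middle median of the 10 genes to -0.19 and gave -1.74 late. The median over all genes was then -0.66 and 0.69, in place of -0.12 and 0.06. The share of called genes that were higher became 28.2% at the middle stage and 72.2% late, against 46.0% and 49.7%. A pseudocount of 1 CPM left 681 genes called early, against 1621. Limiting the comparison to genes averaging 5 CPM or more left 390 early and 5597 at the middle stage, against 1621 and 8860, and that limit leaves fewer genes to call. In the fit over stages DESeq2 passed 45 genes, while leaving out the pair of each stage in turn gave 0 in each case (adjusted p of at least 0.371). Of 179 single-gene values under alternatives, 19 moved by more than the mean reach of the gene's counting interval to either side, and 3 changed sign, each from a value within 2-fold to another within 2-fold. That fit is paired by stage, and without the stage block, on joint TMM scaling, it also passed 0 genes (97 unadjusted). Depth limits Chad (10 reads), Cilp2 (20), Comp (22) and Prg4 (43) in the late C-PC library, Chad (19) in the early C-PC library, Mkx (21) in the late control and Scx (28) in the middle control.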
